A study of Saccharomyces cerevisiae with 5 samples.

Results

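Among the 5325 genes named on a yeast tag microarray, 105 had more than 1 tag set. A tag set was counted for each spot of the array's first block that the platform annotation gives to a gene, joined with the partner spot of the same gene, which lies at a fixed distance further on. The 105 genes held 212 of the 5432 tag sets. Of these genes, 103 had 2 tag sets and 2 (PFF1 and MMS4) had 3, which gave 109 pairs of tag sets that name the same gene. The members were found by their annotation and not by their values, under a rule set with earlier results of these data known.

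In the yeast deletion collection a gene copy is replaced by a cassette that carries a pair of short barcodes, called UPTAG and DNTAG. The barcodes are amplified from pooled genomic DNA with common primers and read on an array, so that the signal of a tag follows the abundance of its strain. A barcode belongs to a strain and not to a gene, and separately made deletions of a gene carry different barcodes. Signal also depends on the barcode itself and on how it hybridizes with each dye.

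The series compared pools of yeast deletion strains, grown on YPD agar and frozen after pooling, on 5 two-colour arrays. Pool A filled both the Cy3 and the Cy5 channel of 3 arrays (replicates 1 to 3) and Pool B both channels of another, while a mixed array had Pool A in Cy3 and Pool B in Cy5. By design, 94 heterozygous strains, each with 1 copy of a gene deleted, entered Pool B at a dilution of 1:1, 1:8 or 1:64 and Pool A at a further dilution of 0.33 to 5 log2 units, or were left out of Pool A, and all other strains were to be equal between the pools. Which strains the 94 were is not given in the labels, so no gene named here is known to be one of them. All values are log2 ratios of the channels, centred on each array, and a tag set's value is the mean of its first tag (the spot of the first block) and its second tag (the partner spot). Which of the tags is the UPTAG is not given. Positive values are taken as more Cy5 signal, and on the mixed array as more signal from Pool B. That direction is likely only, because the labels do not state it. Separate cultures or DNA preparations are not stated for the 3 Pool A arrays, so p-values rest on array-to-array spread that may be purely technical. The Pool B and the mixed array stand alone and were assumed to vary like the Pool A arrays. The title of the Pool B array carries another date than the other 4, so date and pool cannot be told apart for it.

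Part of the genes with several tag sets fell into recognisable kinds. For 28 of the 105 (26.7%), the gene table lists a further systematic name of the open reading frame type, against 31 of the 5220 other genes (0.594%). Examples are FLO8 (YER109C, also YER108C), a transcription factor gene of flocculation, and MMS4 (YBR098W, also YBR100W), which encodes a partner of the Mus81 nuclease. BUD3 (YCL014W, also YCL012W), a gene of bud site selection, and MRC1 (YCL061C, also YCL060C), a mediator of the replication checkpoint, are further ones. The other 77 genes have no such second name. They include the glycolytic genes PGK1 and TPI1, the replication factor gene RFC5, the pheromone receptor gene STE2 and the galactokinase gene GAL1.

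Cytosolic ribosomal protein genes made up 8 of the 105 (7.62%) and 121 of the other 5220 (2.32%). The 8 were RPS9B, RPL21A, RPL41B, RPL37B, RPL22B, RPL39, RPS14B and RPL16B. ATP synthase and assembly genes were ATP4 and ATP11, 2 of the 105 (1.90%) against 16 of the others (0.307%). There was 1 mitochondrial ribosomal protein gene by name (MRPL39), 1 proteasome gene (RPN9) and 1 tRNA synthetase gene (GRS1). RTC6, whose listed synonym bL36m is that of a mitochondrial ribosomal protein, was not found by the name pattern. No member came from the vacuolar sorting and vacuolar ATPase, autophagy, peroxisome, CDC, RAD or SEC lists, whose genes on the array numbered 57, 36, 27, 40, 29 and 36. Genes known by a systematic name only made up 7.62% of the members and 6.57% of the rest. These shares were not tested.

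The members were spread unevenly over the chromosomes. Chromosome X held 19 of them (18.1% of members, against 5.69% of other genes), chromosome XIII 18 (17.1% against 7.87%) and chromosome VI 9 (8.57% against 1.95%). Chromosome VIII held 0, although 221 genes on the array lie there, and chromosome IV held 8 of 699. Spots follow gene order, and the tag sets of a gene lay side by side in 102 of the 109 pairs and at most 4 spots apart in the rest. Members themselves were often close together: 62 of the 105 lay in 18 groups in which the spot numbers of one member and the next differed by no more than 10. The largest group held 8 genes of chromosome XIII, from CVM1 to CIK1, and the next held 6 of chromosome X, from SNA3 to CPS1. CPA1, which encodes the small subunit of the arginine-specific carbamoyl phosphate synthetase, and YOR302W, the leader peptide upstream of CPA1, each had 2 tag sets and lay next to each other.

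Tag sets of the same gene read about as differently as tag sets of different genes. On the 3 Pool A arrays the median absolute difference between tag sets of a gene was 0.35, 0.29 and 0.30 (replicates 1 to 3, 109 pairs each), on the Pool B array 0.32 and on the mixed array 0.28. For the 5326 pairs of tag sets that lie next to each other in spot order and name different genes, the medians in the same order were 0.29, 0.26, 0.29, 0.28 and 0.30. Over all possible pairs of tag sets they were 0.31, 0.34, 0.41, 0.31 and 0.36. For the mean of the 3 Pool A arrays the median was 0.32 for the 109 pairs, 0.26 for neighbouring pairs and 0.32 over all possible pairs. It was 0.36 for the 98 pairs left without 11 near-identical ones, which are described below and were picked by their closeness. For the Pool A means the median was 0.42 between first tags and 0.31 between second tags of a gene's sets, and 0.40 and 0.28 for neighbouring pairs. On Pool A replicate 2 the order was the other way, with 0.355 and 0.364. Across the 109 pairs, the correlation between the tag sets of a gene was 0.13 for the Pool A mean, 0.04 on the Pool B array and 0.14 on the mixed array. For the neighbouring pairs it was 0.27, 0.19 and 0.34. These correlations are descriptions across pairs that share arrays and, for neighbours, tag sets.

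The differences between tag sets were stable from 1 Pool A array to the next. With the difference taken as tag set 1 (lower spot number) minus tag set 2, its correlation across the 109 pairs was 0.88 between replicates 1 and 2, 0.89 between 1 and 3 and 0.93 between 2 and 3. For neighbouring pairs of different genes it was 0.85, 0.87 and 0.87. In 82 of 109 pairs (75.2%) the difference had the same sign on all 3 arrays, and in 71.8% of neighbouring pairs. Limma called 65 of the 109 pairs as different on the Pool A arrays (Benjamini-Hochberg adjusted p under 0.05 over all 5435 pairs), a share of 59.6%, beside 53.2% of the neighbouring pairs. Of the gene's own pairs, 7 of the 109 (6.42%) differed by 1 or more, against 3.42% of the neighbours. Both channels of these arrays held the same pool.

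RPL37B, a gene of the large ribosomal subunit on chromosome IV, had the widest gap on the Pool A arrays. Its tag set 1 read 2.01, 1.71 and 1.92 on Pool A replicates 1 to 3 and its tag set 2 read 0.10, 0.11 and -0.04. The values did not overlap, and the difference was 1.82 ± 0.10 (SE, limma adjusted p = 8.22e-07). The gap lay in the first tag, which differed by 3.69, while the second tags differed by -0.05. In tag set 1 the first tag read 3.83, 3.53 and 3.97 on the Pool A arrays, 2.66 on the Pool B array and 4.47 on the mixed array.

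RPN9, a subunit gene of the regulatory particle of the proteasome, had the next widest gap and in the other direction. Its tag set 1 read -0.32, -0.36 and -0.52 on the Pool A arrays and its tag set 2 read 1.08, 1.23 and 1.05, a difference of -1.52 ± 0.09 (SE, limma adjusted p = 1.17e-06). Here both tags differed the same way, by -2.41 and -0.63. On the other arrays the gap between the means of the tags narrowed: the sets read 0.17 and 0.45 on the Pool B array and -0.01 and -0.003 on the mixed array. The first tags still differed by -0.69 on the Pool B array and by -0.68 on the mixed array. The second tags differed the other way, by 0.13 and 0.66.

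Several enzyme genes followed. ALD3, a cytosolic aldehyde dehydrogenase gene, read 1.38, 1.44 and 1.70 through tag set 1 and -0.28, 0.25 and 0.03 through tag set 2, a difference of 1.51 ± 0.11 (SE, limma adjusted p = 3.78e-06). This was carried by the second tag of tag set 1, at 2.64, 3.05 and 3.34. ALO1, whose product catalyses the last step of erythroascorbate synthesis, differed by -1.10 ± 0.13 and YUR1, a mannosyltransferase gene, by -1.09 ± 0.12. In both, tag set 1 stayed near 0 (means of -0.01 and -0.01) and tag set 2 was high mainly through its first tag. CPA1 differed by 1.07 ± 0.09, again through the first tag (2.33) and not the second (-0.19).

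In 3 genes of the first 10 both tags differed alike and to a similar degree. They were NSE5 of the Smc5-Smc6 complex (-0.90 and -1.14), the ATP synthase assembly gene ATP11 (0.89 and 1.06) and BUD3 (-0.98 and -0.97). CIK1, which encodes a partner of the kinesin Kar3, closed the first 10 with 0.83 ± 0.12. The adjusted p of the genes after ALD3 ran from 8.55e-06 (CPA1) to 0.000271 (CIK1). Over all 109 pairs, both tags were called in the same direction in 16 (14.7%) and in opposite directions in 12 (11.0%), beside 12.2% and 11.4% of neighbouring pairs.

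The smallest pair differences on the Pool A arrays were of 2 sorts. In ATP4 (-0.0003), LYP1 (-0.004) and JIP4 (-0.01) opposite differences cancelled, between the tags or between the arrays. ATP4, the gene of ATP synthase subunit b, had tags that differed by 0.31 and -0.31. In LYP1, the lysine permease gene, they differed by 0.32 and -0.33, and limma called the first tag alone (adjusted p = 0.0424). JIP4 differed by -0.28, 0.08 and 0.16 on the 3 arrays. In FRE7, a gene of the ferric reductase family, and SIR3, a silencing gene, every reading was alike.

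SIR3 and FRE7 belonged to a group of pairs with near-identical readings. Tag sequences were not used here, so whether such a pair is the same tag spotted again was not tested. For each pair, the 10 readings (5 arrays, 2 tags) were compared in units of the spread of repeat spots, and the root mean square was taken. Spots of the same tag then give values near or below 1. This measure and its limits were chosen after values had been seen, and no test was made of them. Across 781 genes with 1 tag set, the gene's own spots and the first of its repeat spots gave a median of 0.996. The first and the second repeat spot of the same run gave 0.72 across 793 runs. Of the 109 pairs, 11 lay between 0.29 and 0.69, none lay between 0.69 and 1.88, and the median of all was 4.85. Among the neighbouring pairs of different genes the median was 4.22, and 3 of 5326 (0.0563%) reached 0.69 or less. So did 24.7% of the 781 comparisons of own and repeat spots, and 45.3% of the 793 within runs.

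The 11 near-identical pairs came from RFC5, RIM15, ILV2, SPC98, GRE2, SRM1, YGL235W, FRE7, SIR3, MCH5 and, as tag sets 2 and 3, MMS4. SIR3 shows how close they were. Its tag set 1 read 0.86, 0.88 and 0.89 on the Pool A arrays, 0.57 on the Pool B array and 0.74 on the mixed array. Its tag set 2 read 0.86, 0.86, 0.87, 0.56 and 0.75. FRE7 tag set 1 read 0.03, 0.83 and 0.85 on the Pool A arrays, -0.34 on the Pool B array and 0.29 on the mixed array, and tag set 2 read 0.07, 0.79, 0.84, -0.34 and 0.27. Replicate 1 of FRE7 stood apart from the other Pool A replicates in both tag sets alike.

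Over the 10 readings the widest difference was 0.11 in GRE2, a methylglyoxal reductase gene, and 0.12 in RIM15, a kinase gene of nutrient signalling. It was 0.22 in SRM1, which encodes the exchange factor of the Ran GTPase, and 0.13 in SPC98 of the gamma-tubulin complex. The closeness of these readings is what chose the 11, so their lack of calls is no result. Of the 11, MMS4 alone has a second systematic name. The next pairs, PHM8 (1.88), RPS14B (1.92) and VAC17 (2.08), lay close to the 95th percentile of the repeat-spot reference (1.95).

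The genes with 3 tag sets differed in this respect. In MMS4, tag set 1 read 0.26, 0.15 and -0.03 on the Pool A arrays, tag set 2 read 0.19, 0.09 and -0.10, and tag set 3 read 0.16, 0.05 and -0.12. The sets overlapped throughout, and no MMS4 pair was called. Its first tag set still stood apart by single tags: on the Pool B array its first tag read -0.18 against -0.82 in both others, and its second tag -0.45 against 0.01 and 0.07. In PFF1, a gene of a vacuolar membrane protease, tag sets 1 to 3 had Pool A means of -0.30, 0.03 and -0.19. Tag sets 1 and 2 differed by -0.33 ± 0.09 (limma adjusted p = 0.00847) and tag sets 2 and 3 by 0.22 ± 0.09 (0.0459), while 1 and 3 differed by -0.10 ± 0.09 (0.372).

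Genes with and without a second systematic name are given side by side. The 32 pairs of such genes had a median absolute Pool A difference of 0.37, with 20 called (62.5%), and the 77 other pairs had 0.30, with 45 called (58.4%). The latter hold 10 of the 11 near-identical pairs. All 7 pairs that differed by 1 or more on the Pool A arrays came from genes without a second name, 9.09% of the 77, beside 3.42% of neighbouring pairs. Changes of 1 or more from Pool A to the Pool B array came in both classes. They made up 12.5% of the 32 pairs and 18.2% of the 77, beside 8.02% of neighbouring pairs. On the mixed array the shares were 0%, 7.79% and 3.57%. The difference between these classes was not tested.

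Repeat spots gave a further reading for 12 of the genes. Each of these, like 781 genes with 1 tag set, has a run of 5 further spots for each tag. The run lay nearer to tag set 2 in both blocks for 10 genes and nearer to tag set 1 in both for RIM8, a gene of the alkaline pH response. For CTK1, a kinase gene of transcription elongation, the first tag of tag set 2 read 0.08, 0.02, -0.07, -0.16 and -0.99 on Pool A replicates 1 to 3, Pool B and the mixed array. The run means were 0.08, -0.05, -0.19, -0.17 and -1.03. Tag set 1 read -0.37, -0.32, -0.15, -0.68 and -0.52. Averaged over the 5 arrays, the absolute difference from the run was 0.05 for tag set 2 and 0.35 for tag set 1, and in the second block 0.05 and 0.45.

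In GAL83, a subunit gene of the Snf1 kinase complex, the second tag showed the same with a wider gap, 0.12 for tag set 2 and 1.18 for tag set 1. For its first tag the distances were nearly equal, at 0.21 and 0.24. In SIR3, whose tag sets were near-identical, the run lay 0.14 from each in the first block. MRC1 was the exception. Its run lay nearer to tag set 1 in the first block (0.09 against 0.94) and slightly nearer to tag set 2 in the second (0.14 against 0.18). The 5 spots of a run had a median SD from 0.04 (second tags on the Pool B array) to 0.27 (first tags on Pool A replicate 3). Over the 12 genes, the median distance from the run on the Pool B array was 0.03 for the nearer tag set and 0.69 for the farther one in the first block. In the second block it was 0.02 and 0.18. Nearer and farther were decided anew for each array and block, so their order is built in. The first block of the Pool B array had the widest gap. On Pool A replicate 3 the first block gave 0.17 and 0.32, and on replicate 2 the second gave 0.12 and 0.27.

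Calls on the 2 tag sets of a gene coincided about as often as calls on neighbouring tag sets of different genes. Limma called 101 of the 212 tag sets (47.6%) as different from 0 on the Pool A arrays, beside 44.3% of all 5432 tag sets. Of these, 67 (31.6%) were positive and 34 (16%) negative, beside 23.8% and 20.5% of all. The signs of this result depend on the scaling, with 25 positive and 119 negative after quantile normalization and 20 and 12 without centring. In such alternative settings, here and for the mixed and Pool B arrays below, calls over all tag sets were not split by direction. These splits are therefore not read as particular to the members. By gene, 16 had all tag sets called in the same direction, 8 had tag sets called in opposite directions, 53 had only some called and 28 had none. By pair, 1 of the sets was called in 49.5%, both in the same direction in 14.7% and both in opposite directions in 7.34%, beside 47.3%, 15.4% and 5.26% of neighbouring pairs. The 8 were BUD3, TPI1, RPN9, GAL83, STE2, TPH3, ABP140 and CPA1. TPI1, the triose phosphate isomerase gene, read -0.19, -0.14 and -0.56 through tag set 1 and 0.55, 0.43 and 0.31 through tag set 2. The 16 included 5 of the genes with near-identical tag sets, RFC5, SIR3, GRE2, FRE7 and MCH5.

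On the mixed array, which compared Pool A with Pool B, 91 of the 105 genes had no tag set called. A difference here is the mixed array minus the Pool A mean. Limma called 16 of the 212 tag sets (7.55%), beside 6.54% of all tag sets. Of the 16, 4 were positive (1.89% of the 212, beside 1.4% of all) and 12 negative (5.66%, beside 5.14% of all). They came from the other 14 genes. JIP4 alone had both tag sets called in the same direction, RPL37B had them called in opposite directions, and in the other 12 genes a tag set was called and its partner set was not. By pair, 1 of the sets was called in 11% and both in the same direction in 0.917%, beside 10.5% and 1.24% of neighbouring pairs. The difference between the sets was itself called in 9 of the 14 genes, and not in JIP4, MOB2, IOC3, SRC1 and SIP18. With quantile normalization 3 positive and 8 negative calls were made, and without centring 0 and 9. Without Pool A replicate 2, 8 were called. With all 4 self-self arrays as the reference 0 of the 212 were called and 30 of all tag sets, so none of the 16 calls holds with that reference.

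RPL37B was the gene with opposite calls. Tag set 1 rose from a Pool A mean of 1.88 ± 0.15 (SD, n = 3) to 3.18 on the mixed array, a difference of 1.30 ± 0.20 (SE, limma adjusted p = 0.000103). Tag set 2 fell from 0.06 ± 0.08 (SD, n = 3) to -0.72, a difference of -0.78 ± 0.20 (SE, limma adjusted p = 0.0156). The difference between the sets grew by 2.08 ± 0.19 (SE, limma adjusted p = 0.000125 over all 5435 pairs), and both tags took part, with 1.41 and 2.76. On the Pool B array the sets read 1.61 and -0.42, a gap of 2.03, which is 0.21 ± 0.19 above the Pool A gap (limma adjusted p = 0.424). By the first tag alone, tag sets 1 and 2 were at 0.70 and -0.71 and neither was called. With quantile normalization tag set 1 was at 0.43 and not called, without centring at 0.88 and not called, and the call on tag set 2 ended without Pool A replicate 2. This was the single pair of tag sets of a gene still called on the mixed array with all 4 self-self arrays as the reference, among the 26 called with Pool A alone.

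YOR302W came next among the pairs. Its tag set 1 read 1.12, 1.00 and 0.97 on the Pool A arrays and 1.49 on the mixed array, and its tag set 2 read 0.54, 0.55 and 0.24 on the Pool A arrays and -0.69 on the mixed array. The gap widened by 1.59 ± 0.18 (SE, limma adjusted p = 0.000575). Tag set 2 was also low on the Pool B array (-0.45), whose channels held the same pool. The tag sets of its neighbour CPA1 were not called on the mixed array, and their gap was 1.19, 1.01 and 1.01 on the Pool A arrays, 0.89 on the Pool B array and 1.30 on the mixed array.

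For RPN9, tag set 2 fell by 1.12 on the log2 scale (SE 0.20, limma adjusted p = 0.000519) from its high Pool A level to -0.003, and tag set 1 was at 0.39 ± 0.20 (limma adjusted p = 0.276). In YIL092W, a gene of unknown function, tag set 2 read 0.33, 0.65 and 0.36 on the Pool A arrays and -0.87 on the mixed array, a difference of -1.31 ± 0.20 (SE, limma adjusted p = 0.000103). Its tag set 1 read 0.09, 0.20 and 0.11 on the Pool A arrays and 0.01 on the mixed array, with a difference of -0.12 ± 0.20 (limma adjusted p = 0.774). The sets differed from each other by 1.19 ± 0.17 (limma adjusted p = 0.0027).

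Further tag sets with a negative call were those of PGS1, the phosphatidylglycerolphosphate synthase gene (tag set 1, -1.17), STE2 (tag set 2, -0.90), ATP11 (tag set 1, -0.81), GAL1 (tag set 2, -0.80) and EMI1 (tag set 2, -0.76). The remaining ones were SIP18, a gene induced by osmotic stress (tag set 1, -0.70), MOB2, a kinase regulator gene (tag set 2, -0.69), and IOC3 of the Isw1 chromatin remodelling complex (tag set 1, -0.67). The positive call beside JIP4 and RPL37B was tag set 1 of SRC1, an inner nuclear membrane protein gene, at 0.70. The partner sets of these genes lay between -0.32 (MOB2) and 0.16 (GAL1). In GAL1 and EMI1 the call came from the second tag alone (-1.60 in each), and the first tag of the same set lay at 0.004 and 0.08. In PGS1 it came from the first tag (-2.08), with the second at -0.27. The calls on STE2, MOB2 and SRC1 ended with the second tag alone, and those on ATP11 and SIP18 with the first alone. That on IOC3 ended with either tag alone. Leaving out a Pool A array ended most calls of these genes. Without replicate 1 those on GAL1, PGS1, MOB2 and IOC3 ended, without replicate 2 those on GAL1, EMI1, MOB2, IOC3, SRC1, SIP18 and ATP11, and without replicate 3 that on SIP18. The call on STE2 held without each.

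In JIP4 on chromosome IV both tag sets rose, by 0.79 ± 0.21 and 0.78 ± 0.23 (SE, limma adjusted p = 0.0188 and 0.0374). Tag set 1 read -0.27, -0.19 and -0.56 on the Pool A arrays and 0.45 on the mixed array, and tag set 2 read 0.005, -0.27 and -0.72 and then 0.45. The sets met on the mixed array only as means of their tags. Their first tags differed by -0.64 there and their second tags by 0.63. Both calls ended without centring and without Pool A replicate 3. The call on tag set 1 also ended with the first tag alone. That on tag set 2 also ended with the second tag alone, with quantile normalization and with arrays scaled to one spread. On the Pool B array the sets parted, at -0.65 and 0.56, a change of the gap by -1.20 (limma adjusted p = 0.00231) through the second tag of tag set 1 (-1.57 against 0.36).

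Tested as pairs, 26 of 109 (23.9%) differed between tag sets on the mixed array relative to Pool A, beside 16.3% of neighbouring pairs, and 17 with arrays scaled to 1 spread. After RPL37B, YOR302W, RPN9 and YIL092W the widest were the nucleoporin gene NUP116 (1.13 ± 0.18), the aminobenzoate synthase gene ABZ1 (1.01 ± 0.27) and GMC1 (0.99 ± 0.18). PGS1 (-0.98), GAL1 (0.96) and EMI1 (0.92) closed the first 10. NUP116 read 0.66 and 0.33 on the mixed array from Pool A means of 0.04 and 0.84, so that the order of its sets turned. Of the 26 pairs, 17 belonged to genes in which no tag set was called by itself. The pairs that changed least included JIP4 (0.01), MMS4 tag sets 1 and 2 (0.01), RIM8 (-0.01), FRE7 (0.01) and FLO8 (0.02), none of them called. In JIP4 the tags cancelled, with changes of -0.60 for the first and 0.61 for the second.

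The change had a preferred direction with respect to spot order. In 74 of 109 pairs (67.9%) tag set 1 moved up relative to tag set 2 on the mixed array minus Pool A, and in 20 of the 26 called pairs, while neighbouring pairs of different genes split evenly (49.4% and 49.5%). The median change was 0.19, against -0.01 for neighbours, and the median absolute change was 0.38, against 0.28 for neighbours. On the Pool B array minus Pool A, tag set 1 moved up in 66 pairs (60.6%) and in 30 of 41 called pairs, against 49.6% of neighbouring pairs. These comparisons share the Pool A arrays. On the Pool A arrays by themselves tag set 1 was higher in 49 of 109 pairs (45.0%). The direction was noticed in the values and was not tested.

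On the Pool B array, where both channels held the same pool, 53 of the 212 tag sets (25%) were called against Pool A, beside 20.3% of all tag sets. Of these, 20 (9.43%) were positive and 33 (15.6%) negative, beside 7.73% and 12.5% of all. Without centring the split was 0 and 86, with each tag block centred by itself 36 and 32, with arrays scaled to equal spread 7 and 23, and with quantile normalization 33 and 36. Without Pool A replicate 2, 28 were called, and 34 without replicate 3. As pairs, 41 of 109 (37.6%) were called, beside 34.5% of neighbouring pairs, with a median absolute change of 0.39 against 0.37.

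The widest pair changes on that array were sign changes. NSE5 read -0.09, -0.17 and -0.17 through tag set 1 and 0.70, 1.03 and 0.91 through tag set 2 on the Pool A arrays, and then 0.34 and -0.13 on the Pool B array, a change of the gap by 1.49 ± 0.20 (SE, limma adjusted p = 0.000777). ABP140, whose product binds actin and methylates tRNA, went from Pool A gaps of -0.60, -0.67 and -1.11 to 0.69, a change of 1.49 ± 0.22 (limma adjusted p = 0.00124). ATP11 turned the other way, from gaps of 1.09, 0.87 and 0.98 to -0.47, a change of -1.45 ± 0.17 (limma adjusted p = 0.000618). ALO1 (1.38 ± 0.27) and SWH1, an oxysterol-binding protein gene (1.32 ± 0.17), also reversed their order.

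Of the 65 pairs called on the Pool A arrays, 35 (53.8%) kept their sign on the Pool B array and 41 (63.1%) on the mixed array, beside 55.5% and 78.5% of the called neighbouring pairs. Across the 109 pairs, the correlation of the Pool A difference was 0.23 with the Pool B array and 0.58 with the mixed array. For neighbouring pairs it was 0.14 and 0.54. The Pool B array differed from the others in pool and title date, and their parts in this cannot be told apart.

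Among the ribosomal protein genes, on the Pool A arrays 5 of their 8 pairs were called, on the mixed array 3 and on the Pool B array 3. Over all 109 pairs the shares were 59.6%, 23.9% and 37.6%, so counts of this size among 8 pairs are not read as particular to them. After RPL37B, RPL22B differed by -0.48 ± 0.09 on the Pool A arrays and RPL16B by -0.45 ± 0.10, and RPL21A (0.34) and RPS9B (0.24) were called too. RPL39, RPL41B and RPS14B (0.16, -0.17 and 0.03) were not. By the first tag alone RPL39 (0.51) and RPL41B (-0.63) were called, while their second tags differed the other way (-0.18 and 0.29). The RPS14B tag sets read 0.34 and -0.45 on the mixed array, from Pool A means of -0.04 and -0.07 (change 0.76, limma adjusted p = 0.0201), and 0.49 and 0.39 on the Pool B array. Of the respiratory and translation genes outside this list, GRS1, the glycyl-tRNA synthetase gene, differed by 0.35 ± 0.09 on the Pool A arrays, RTC6 by 0.62 ± 0.09 and MRPL39 by -0.08 ± 0.09, the last without a call. In MRPL39 opposite differences cancelled, 1.28 between the first tags and -1.44 between the second, each of them called alone.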

How the data were processed

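The files deposited by the authors hold a log2 ratio of the channels for each of 22575 spots on 5 arrays. Base 2 was found by undoing the logarithm: of ratios under 1.5, 100% then had 3 decimals. What scanner, background treatment and normalization made them was not given in the sources used here. Per the labels, tags were amplified in separate PCRs with Cy3- or Cy5-labelled primers. The platform annotation named 18794 spots. Symbols and chromosomes came from a gene table of assembly R64, which lacked 4 of the genes. Coordinates and tag sequences were not used here.

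The median of an array's named spots was subtracted from its values. These medians lay at -0.33, 0.07 and 0.03 (Pool A), -0.77 (Pool B) and -0.50 (mixed) beforehand. A tag set was the mean of its 2 spots. Repeat spots were left out of tag sets, since a run cannot be tied to a tag set of a gene with several. The limma package (3.58.1, under R 4.3.3, with lmFit, contrasts.fit and eBayes) was run over all 5432 tag sets, and over the differences of all 5435 pairs (109 of the same gene and 5326 of neighbours, which share tag sets). Tests were two-sided with Benjamini-Hochberg adjustment at 0.05. Only the 3 Pool A arrays give residual spread, and their number limits the precision. The median SE of a difference from Pool A on a lone array was 0.20 for a tag set and 0.18 for a pair. The fits were tested on simulated data.

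Named genes were those with 3 tag sets, those with a call on the mixed array, the 10 widest and 5 narrowest pairs of the Pool A and mixed comparisons, the 5 widest of the Pool B comparison, and members of name-based lists. Other names were chosen after values were seen. The members, lists and rules were chosen with earlier results of these data known. Classes by words of a product description were not made.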

Additional observations from a re-analysis of the deposited data

How the results depend on the processing

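Of 51 named differences recomputed under up to 12 alternatives, 482 of 592 values kept direction and side of the threshold, 84 lost the call and 26 changed sign. The 482 include 51 values with repeat spots averaged in, whose estimates were fixed beforehand because that averaging touched only genes with 1 tag set. With all 4 self-self arrays as the reference, the mixed array gave 30 calls over all tag sets (main 355), 0 of the members' 16 and 1 of 26 pairs (RPL37B). Of the 26, 4 were of differences called before: by the first tag GAL1 tag set 2 (0.004) and EMI1 tag set 2 (0.082), and by the second the RPL37B and CPA1 pairs on Pool A (-0.047 and -0.19). These are the single tags' own values. The other 22 were of uncalled pair differences within 0.018 of 0. On Pool A, LYP1 gave 0.010 with quantile normalization and 0.32 by the first tag, ATP4 0.022 with scaling and 0.31 by the first tag, SIR3 -0.012 by the first tag and JIP4 0.020 by the second. On the mixed array, FLO8 gave -0.028 with quantile normalization, -0.033 with scaling and -0.11 by the first tag, RIM8 0.0050 with 4 self-self arrays and 0.066 by the second tag, JIP4 -0.60 and MMS4 tag sets 1 and 2 -0.050 by the first tag. Leaving out a Pool A array gave, on Pool A, -0.085 to 0.061 for LYP1, -0.089 to 0.12 for ATP4, -0.098 to 0.12 for JIP4 and -0.0072 to 0.028 for FRE7. On the mixed array it gave -0.10 to 0.15 for FLO8, -0.097 to 0.062 for RIM8, -0.12 to 0.094 for JIP4 and -0.0059 to 0.029 for FRE7. Of these, the LYP1 first tag alone was called.

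Without centring, calls over all and over members' tag sets became 216 and 9 (mixed), 1862 and 86 (Pool B minus Pool A) and 849 and 32 (Pool A against 0, main 2408 and 101). With arrays scaled to one spread they were 213 and 10 (mixed) and 660 and 30 (Pool B, main 1101 and 53), with 17 pairs on the mixed array. Quantile normalization gave 3897 for Pool A against 0. The first tag alone gave 12 pairs on the mixed array and 1658 tag sets for Pool B. Leaving out a Pool A array gave, over all and over members, 172 to 387 and 8 to 17 (mixed, lowest without replicate 2), 626 to 1653 and 28 to 68 (Pool B, lowest without replicate 2; 660 and 34 without replicate 3), and 1443 to 2539 over all for Pool A against 0 (lowest without replicate 3).

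The median absolute difference between tag sets of a gene, in the order Pool A replicates 1 to 3, Pool B and mixed, was 0.47, 0.36, 0.50, 0.56 and 0.44 for the first tag. For the second tag it was 0.28, 0.36 and 0.34 on Pool A and 0.33 on the mixed array. Quantile normalization gave 0.33 and 0.28 on Pool A replicates 2 and 3 and 0.36 on Pool B, and scaling 0.43 on Pool A replicate 1 and 0.28 on Pool B. The causes of these shifts were not tested. Robust variances and separate centring of the blocks changed no named call. Averaging repeat spots in changed none either, but it touched only genes with 1 tag set, so the members' own values could not move. No paired analysis was possible because the groups share fewer than 2 replicate numbers. Signal over background is unknown, as the files hold ratios only.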

Other observations

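A neighbour of the members read like one of their tag sets. Tag set 1 of MRC1 and the tag set of KRR1, a gene of ribosome assembly that lies next to it in spot order, differed over the 10 readings by 0.62 in units of the repeat-spot spread. ERV1 and POP6 (0.64) and IFH1 and UCC1 (0.58), which are no members, were the other neighbouring pairs of different genes at or below 0.69. These pairs were singled out after their values were seen.

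Within a tag set, the first and the second tag differed by about as much as in all tag sets. The median absolute difference between them on Pool A replicates 1 to 3, the Pool B array and the mixed array was 0.45, 0.53, 0.57, 0.48 and 0.40 for the members and 0.46, 0.59, 0.60, 0.56 and 0.51 for all tag sets. Between the first tags of a gene's sets the medians were 0.47, 0.36, 0.50, 0.56 and 0.44, and between the second tags 0.28, 0.36, 0.34, 0.31 and 0.33. Centring was by array, so differences within a tag set hold any offset between the blocks, and those within a block do not. The median of first minus second tag ran from -0.43 to -0.12 for the members. For all tag sets it ran from -0.53 to -0.27.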
